A study of Homo sapiens with 6 samples.

Results

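A set of 10 genes of the cytosolic nucleic acid sensing machinery was examined in PANC1 cells, an established human pancreatic ductal carcinoma line, with and without gemcitabine. They were taken by name: RIGI, IFIH1, DHX58, TLR3 and ZBP1, which sense RNA or Z-form nucleic acids, the DNA sensor CGAS, the adaptors MAVS and STING1, the kinase TBK1 and the DNA exonuclease TREX1. These genes and the partner lists below were chosen with earlier results of these data known. All 10 were found among the 20461 genes of the deposited RNA-seq table, matched by Ensembl ID. For 48 h the cells received either 50 nM gemcitabine, a deoxycytidine analogue that stalls DNA replication, or 0.1% DMSO as vehicle, and RNA-seq was done on 2 biological replicates of each condition. Replicates are numbered by the library index of the deposited table, which could not be matched to the numbers in the sample labels. DNaseI-seq, which maps open chromatin, was done on 1 library of each condition. All libraries come from the same cell line in culture, so the results hold for 1 line and 1 dose. The libraries held 13194533 to 15766237 fragments on protein-coding genes. The ductal keratins KRT7, KRT8 and KRT18 each had 5963 fragments or more in every library. Of 10 blood cell markers, 8 had 5 fragments or fewer in every library, CD3E and LYZ among them with 0 in all 4. PTPRC had 4 and 2 with vehicle and 9 and 5 with gemcitabine. CD68, which is not limited to blood cells, had 133 and 154 with vehicle and 238 and 269 with gemcitabine. KRT19, a further ductal keratin, was low and called higher, with 45 and 45 fragments with vehicle and 94 and 88 with gemcitabine.

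Nucleic acid sensors detect DNA or RNA that is out of place, whether viral or from the cell itself. RIG-I (encoded by RIGI) and MDA5 (IFIH1) recognise RNA in the cytosol and signal through MAVS on mitochondria, and cGAS (CGAS) recognises DNA and makes the cyclic dinucleotide that activates STING (STING1). Both routes meet at the kinase TBK1, which activates IRF3 and leads to transcription of interferon genes. TLR3 reads RNA from the endosome, not from the cytosol, and TREX1 degrades cytosolic DNA before cGAS can bind it. Several sensors are themselves interferon-stimulated genes.

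RIGI, STING1 and TLR3 rose after gemcitabine, and no member was called lower. RIGI rose 2.70-fold, STING1 2.25-fold and TLR3 1.84-fold. To be called, a gene needed an edgeR adjusted p under 0.05 and a fold change over 1.5. It also needed 0.1 FPKM or more on average in either condition, and means at least 1 FPKM apart. FPKM are fragments scaled by transcript length and library depth, and can be compared between genes. Of the 9 members with enough fragments to test, 3 were called higher, where 5.69% of the 14854 genes tested were called higher, and 0 were called lower, where the share was 4.43%. By adjusted p alone, 4 members were higher, against a share of 18.5% of all genes tested, and 1 was lower, against 20.0%. At an unadjusted p under 0.05, 5 members were higher and 2 lower (CGAS and TBK1) in edgeR. In DESeq2 4 were higher and 1 lower (TBK1), and 0 were called lower. Of the 14854 genes tested, 7014 in edgeR and 5144 in DESeq2 passed that limit in either direction. The scaled counts of the conditions did not overlap for 8 of the 9, but this was so for 69.7% of all genes tested. The median log2 fold change was 0.39 over the 9 members, or 0.24 without the sparsely read DHX58, and 0.0068 over all genes tested.

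**Figure D1:**
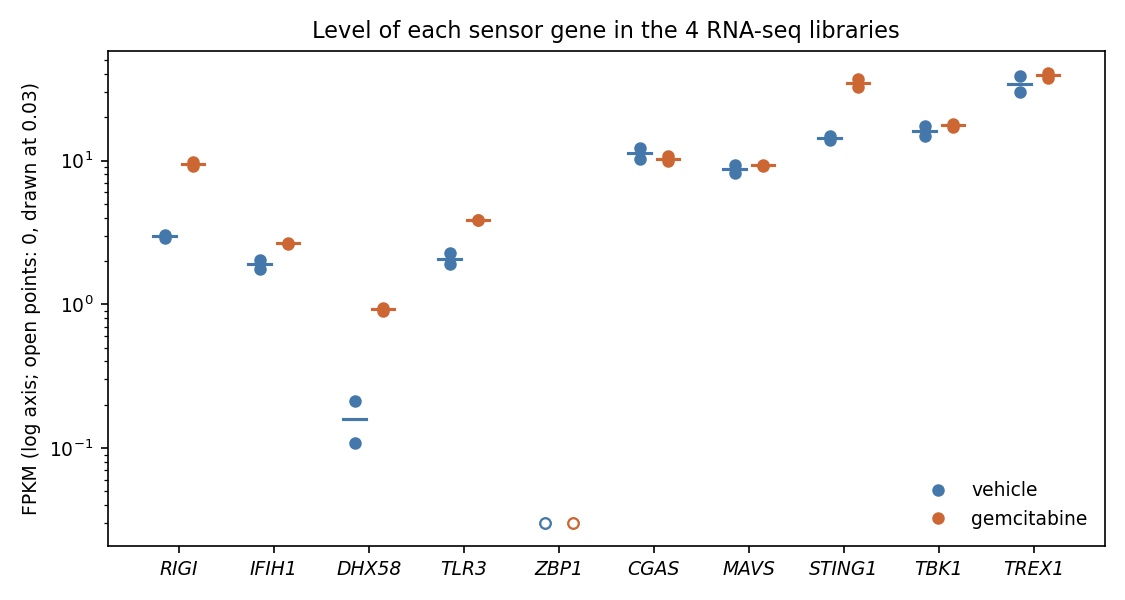
FPKM of each of the 10 sensor genes (log axis) in the 2 vehicle (blue) and 2 gemcitabine (orange) libraries. Points are libraries, short bars are condition means, and open points mark ZBP1, listed at 0 in all 4. The gemcitabine points of RIGI, DHX58, TLR3, IFIH1 and STING1 lie above both vehicle points, while the ranges of TBK1, MAVS, CGAS and TREX1 overlap between the conditions.

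**Figure D2:**
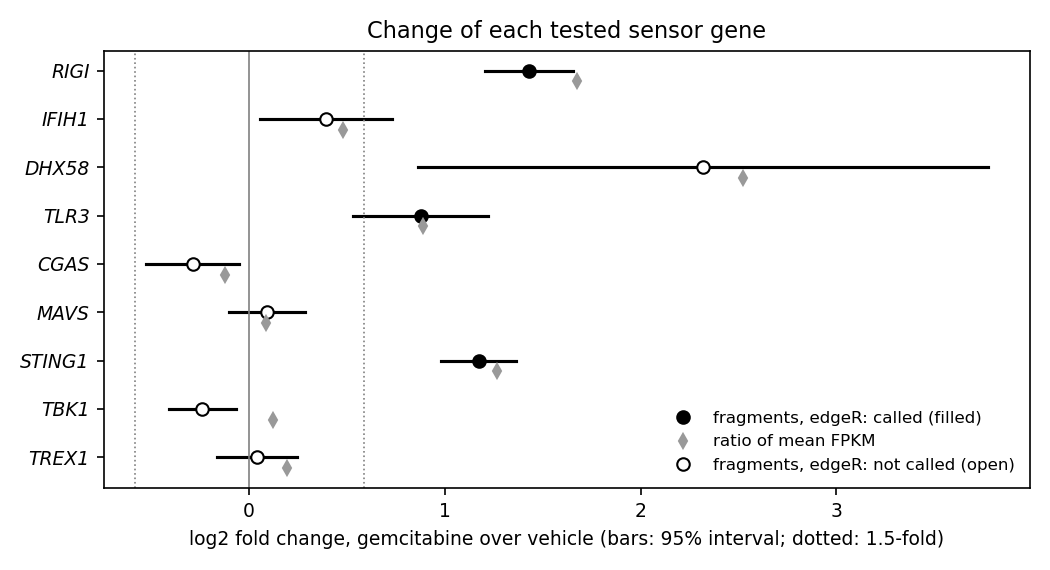
Log2 fold change of the 9 tested sensor genes, gemcitabine over vehicle, from edgeR on fragments (circles, filled where called, bars for the 95% interval) and as the ratio of mean FPKM (grey diamonds). Dotted lines mark 1.5-fold. RIGI, TLR3 and STING1 are filled, DHX58 has the widest interval, and TBK1 lies below 0 by fragments and above 0 by FPKM.

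RIGI (chr9:32455300-32526206, minus strand, hg19) encodes RIG-I, the helicase that recognises short RNA with a 5′ triphosphate. Vehicle libraries held 186 and 214 of its fragments, and gemcitabine libraries 528 and 469. Both gemcitabine libraries lay far above both vehicle libraries. The log2 fold change was 1.43 with a standard error of 0.10 (edgeR quasi-likelihood test, adjusted p = 2.16e-07), and the 95% interval of the fold change ran from 2.31 to 3.15. In FPKM, RIGI moved from 2.89 and 3.04 to 9.20 and 9.74. A readthrough gene of the later annotation overlaps RIGI by 70886 bases on the same strand and is not analysed here.

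IFIH1 (chr2:163123584-163175194, minus strand) encodes MDA5, the related helicase that recognises long duplex RNA. Its fragments were 102 and 109 with vehicle and 125 and 131 with gemcitabine, a narrow gap that did not overlap. Its log2 fold change of 0.39 (95% interval 0.057 to 0.73) did not pass the test (edgeR adjusted p = 0.0615). It passed on adjusted p without gemcitabine replicate 1 (edgeR adjusted p = 0.0462) and with library totals (edgeR adjusted p = 0.0213), both times short of the fold limit. The number of RIGI fragments per IFIH1 fragment was 1.82 and 1.96 in the vehicle libraries and 4.22 and 3.58 in the gemcitabine libraries, a ratio taken within each library and so free of depth scaling.

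DHX58 (chr17:40253422-40264732, minus strand) encodes LGP2, the family member without signalling domains, which tunes the other helicases. It had 1 and 4 fragments with vehicle and 15 and 9 with gemcitabine. Counts this low carry a large counting error. The ratio of the summed fragments, 24 against 5, scaled by depth, was 5.19, with an exact counting interval of 1.94 to 17.4. A log2 fold change of 2.32 (standard error 0.68) had an edgeR adjusted p of 0.0143, but DHX58 was not called, since the difference of mean FPKM was 0.761, under the limit of 1. Its log2 fold change was 1.71 without vehicle replicate 1 (edgeR adjusted p = 0.121), 3.51 without vehicle replicate 2 (0.0360), 1.92 without gemcitabine replicate 1 (0.0812) and 2.63 without gemcitabine replicate 2 (0.00257).

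TLR3 (chr4:186990065-187009227, plus strand) encodes the endosomal receptor for duplex RNA. Its fragments went from 81 and 97 to 145 and 157. The gemcitabine libraries were both higher, with FPKM of 3.84 and 3.85 against 1.89 and 2.27. The log2 fold change was 0.88 with a standard error of 0.16 (edgeR adjusted p = 0.000633). On log2(FPKM + 0.1) it had an adjusted p of 0.0515 in limma and was not called.

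ZBP1 (chr20:56178902-56195632, minus strand) encodes the sensor of Z-form nucleic acids that can trigger necroptosis through RIPK3. It had 0 fragments in all 4 libraries, which allows up to 0.190 to 0.227 CPM (fragments scaled to library depth), depending on the library, and counting error only is covered by this limit. RIPK3, its partner kinase, also had 0 in all 4. No test was made for either gene.

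The starts of RIGI, IFIH1 and TLR3 are shown because RIGI and TLR3 were called higher and IFIH1 was not, and because a DNaseI peak lies at the start of RIGI alone of the 3. The letters come from the RefSeq promoter table (GRCh38.p14), which held 6 of the 10 members (RIGI, IFIH1, TLR3, MAVS, TBK1 and TREX1) and was placed on hg19 by exact match. Each is given 5′ to 3′ on the strand of the gene, with the 250 bases before the start, and for TLR3 also 6 bases after it. Capitals mark matches, on either strand, to an interferon-stimulated response element core (GAAA, any 2 bases, GAAA), a gamma-activated site (TTCNNNGAA) or a kB site (GGGA, any 3 bases, TCC). The RIGI window is chr9:32526195-32526444, that of IFIH1 is chr2:163175195-163175444 and that of TLR3 is chr4:186990060-186990315.
RIGI: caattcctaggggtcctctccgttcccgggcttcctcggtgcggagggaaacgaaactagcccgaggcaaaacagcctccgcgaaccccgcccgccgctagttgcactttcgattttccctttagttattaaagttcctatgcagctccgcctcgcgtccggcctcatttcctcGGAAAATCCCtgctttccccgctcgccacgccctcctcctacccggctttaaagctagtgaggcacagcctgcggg
IFIH1: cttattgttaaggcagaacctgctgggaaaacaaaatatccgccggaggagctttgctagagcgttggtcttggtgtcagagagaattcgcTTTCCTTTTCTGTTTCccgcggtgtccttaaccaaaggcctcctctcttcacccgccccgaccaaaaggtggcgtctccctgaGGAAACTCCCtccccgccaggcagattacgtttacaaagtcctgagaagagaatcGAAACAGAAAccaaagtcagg
TLR3: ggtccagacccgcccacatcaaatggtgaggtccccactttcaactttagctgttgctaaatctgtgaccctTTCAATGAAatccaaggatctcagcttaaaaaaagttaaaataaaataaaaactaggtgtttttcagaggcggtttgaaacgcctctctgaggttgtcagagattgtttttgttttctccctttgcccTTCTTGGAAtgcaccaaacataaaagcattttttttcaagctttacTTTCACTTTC

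In the RIGI window the only capitals are a kB match 76 to 67 bases before the start, whose letters read in reverse complement. IFIH1 had a kB match at the same distance. IFIH1 also had 3 matches to the interferon-stimulated response element core, at 159 to 150, 153 to 144 and 21 to 12 bases before the start, of which the pair farther from the start overlap each other. TLR3 had a core match that spans its start and a pair of gamma-activated site matches, at 178 to 170 and 50 to 42 bases before it, each of which reads on both strands. Over all 35116 promoters of the table, 3.57% held the response element core, 7.66% the gamma-activated site and 5.07% the kB letters, against 2, 1 and 2 of the 6 members. A GC box (GGGCGG) stood in 4 of the 6 (RIGI, IFIH1, TLR3 and MAVS) and in 45.0% of all, and a TATA box (TATAAA) in 0 of the 6 and 11.5% of all. The GC content was 59.6% for RIGI, 51.2% for IFIH1 and 39.1% for TLR3, with 22, 12 and 3 CpG pairs. A match is a run of letters and not a measured binding site, and the absence of a match says only that these letters are not in the window.

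CGAS (chr6:74123238-74162020, minus strand) is the DNA sensor of the set. It had 374 and 481 fragments with vehicle and 311 and 335 with gemcitabine. After TMM scaling the vehicle libraries stood at 25.7 and 31.6 CPM and the gemcitabine libraries at 22.4 and 24.6, so the ranges were separate but close. At -0.29 (95% interval -0.53 to -0.050), its log2 fold change did not pass the test (edgeR adjusted p = 0.0533). It was -0.12 without vehicle replicate 2 and -0.42 without vehicle replicate 1. It was -0.35 without gemcitabine replicate 2, where it passed the adjusted p limit (edgeR adjusted p = 0.00538) but not the fold limit. The opposite-strand gene DDX43 overlaps CGAS by 4052 bases, and it had at most 1 fragment in any library.

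STING1 (chr5:138855118-138862520, minus strand) encodes the adaptor that receives the cGAS signal at the endoplasmic reticulum. It had 284 and 294 fragments with vehicle and 607 and 597 with gemcitabine. Replicates lay close together and the conditions far apart. The log2 fold change was 1.17 with a standard error of 0.089 (edgeR adjusted p = 2.97e-07), and with each library left out in turn it ranged from 1.17 to 1.19. STING1 fragments per CGAS fragment stood at 0.759 and 0.611 in the vehicle libraries and 1.95 and 1.78 in the gemcitabine libraries. Fragments are not scaled by transcript length, so these ratios can be compared between libraries but do not say which gene is more abundant.

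MAVS (chr20:3827446-3856770, plus strand) encodes the mitochondrial adaptor of RIG-I and MDA5. Its fragments were 406 and 407 with vehicle and 398 and 402 with gemcitabine, and the log2 fold change was 0.091 (95% interval -0.10 to 0.28, edgeR adjusted p = 0.463). A change of 1.5-fold in either direction lies outside that interval. RIGI fragments per MAVS fragment were 0.458 and 0.526 with vehicle and 1.33 and 1.17 with gemcitabine.

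TBK1 (chr12:64845870-64895894, plus strand) encodes the kinase on which the MAVS, STING and TLR3 routes converge. It had 818 and 797 fragments with vehicle and 658 and 607 with gemcitabine. The log2 fold change was -0.24 with a standard error of 0.079 (edgeR adjusted p = 0.0273), short of the fold limit. Its direction depended on the measure, since FPKM was 17.5 and 14.8 with vehicle and 18.0 and 17.1 with gemcitabine, a log2 ratio of means of 0.12. The median log2 ratio of mean FPKM over 13575 genes was itself 0.12. In DESeq2 the adjusted p was 0.127, with library totals in edgeR it was 0.223, and in edgeR it was 0.284 without vehicle replicate 1, 0.109 without vehicle replicate 2 and 0.0537 without gemcitabine replicate 2. The limit was passed without gemcitabine replicate 1 (edgeR adjusted p = 0.00459) and with edgeR's own filter (0.0294). STING1 fragments per TBK1 fragment went from 0.347 and 0.369 to 0.922 and 0.984.

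TREX1 (chr3:48507210-48509044, plus strand) encodes the main cytosolic DNA exonuclease. It had 405 and 400 fragments with vehicle and 404 and 361 with gemcitabine, ranges that overlapped after scaling. On the log2 scale the change was 0.040 (95% interval -0.16 to 0.24, edgeR adjusted p = 0.778). TREX1 lies wholly within the longer gene ATRIP on the same strand, and its fragment values are not whole, so its level and change are uncertain. ATRIP had 298, 293, 284 and 239 fragments in the same libraries (log2 fold change -0.063, edgeR adjusted p = 0.692).

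Per length, TREX1 stood highest in both conditions, with a mean FPKM of 34.3 with vehicle and 39.1 with gemcitabine. With vehicle, TBK1 (16.1), STING1 (14.4), CGAS (11.2), MAVS (8.72), RIGI (2.96), TLR3 (2.08), IFIH1 (1.90) and DHX58 (0.160) followed. The library ranges of TBK1 and STING1 overlapped, as did those of TLR3 and IFIH1, so the order within each pair is not beyond the spread. With gemcitabine the order became STING1 (34.7), TBK1 (17.6), CGAS (10.3), RIGI (9.47), MAVS (9.25), TLR3 (3.84), IFIH1 (2.65) and DHX58 (0.921), where the ranges of RIGI and MAVS overlapped. STING1 then stood above TBK1, and RIGI reached the level of its adaptor MAVS.

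Open chromatin at the starts was read from 1 peak list per condition, with no replicate and so no test. The vehicle list held 9606 peaks and the gemcitabine list 10695. The authors added public PANC1 peaks to raise sensitivity, which were not used here. A start without a peak in these lists was not shown to be closed. A peak lay within 5 kb of an annotated start for 4 of the 10 members in the vehicle list (RIGI, CGAS, STING1 and TREX1), where 26.1% of 19619 genes had one. In the gemcitabine list 3 of the 10 did (RIGI, STING1 and TREX1), where 29.9% of genes had one. The RIGI peaks, chr9:32526069-32527131 with vehicle and chr9:32526111-32526947 with gemcitabine, had MACS scores of 67.03 and 67.48, and all 250 bases of the RIGI window shown above lay in both. A MACS score rises with the evidence for a peak, and each list begins at 50.

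The STING1 peak was chr5:138861969-138862458 with vehicle (score 53.59) and chr5:138861566-138862434 with gemcitabine (score 114.1), with 466 bases shared. The vehicle score was at or above 12.2% of its list and the gemcitabine score at or above 83.8% of its own. The TREX1 peaks scored 61.03 and 75.71, and the vehicle peak lay wholly inside the gemcitabine peak. CGAS had a peak over its start in the vehicle list alone (chr6:74161445-74162169, score 82.24), and the nearest gemcitabine peak was 68.4 kb away. Over all genes, 24.0% of those with a vehicle peak near a start had none in the gemcitabine list. The nearest peaks to TLR3 lay 117.8 kb (vehicle) and 329.8 kb (gemcitabine) from a start, those to DHX58 101.2 and 139.6 kb, and those to IFIH1 1038.8 and 1038.6 kb. MAVS had its nearest at 25.8 kb in both lists, TBK1 at 227.3 and 269.9 kb, and ZBP1 at 77.6 and 58.9 kb.

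**Figure D3:**
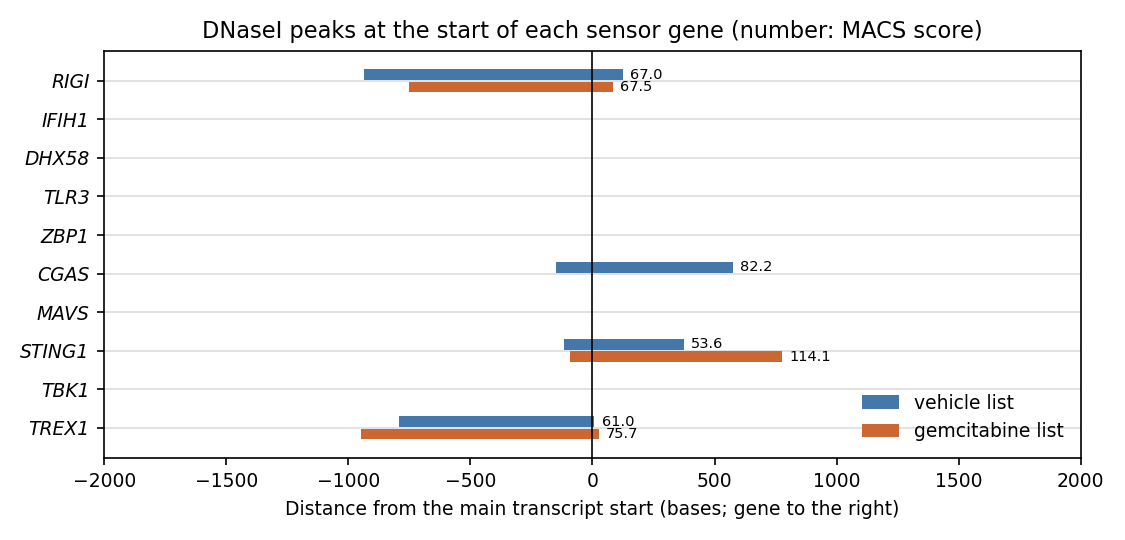
DNaseI peaks within 2000 bases of the main transcript start of each sensor gene, from the vehicle list (blue) and the gemcitabine list (orange), 1 library each. The horizontal axis is the distance from the start in bases, with the gene to the right, and the number beside each bar is the MACS score. RIGI, STING1 and TREX1 have a bar from both lists, CGAS from the vehicle list alone, and the other 6 genes have none.

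Partners of the sensors were taken from 7 lists, of which 97 genes could be tested, and in edgeR 18 (18.6%) were called higher and 0 lower, against 5.69% and 4.43% of all genes tested. By adjusted p alone, 29.9% were higher and 19.6% lower, against 18.5% and 20.0%. At an unadjusted p under 0.05, 21 of the 97 were lower in edgeR and 19 in DESeq2, which also called 0 lower. Of the 14854 genes tested, 7014 in edgeR and 5144 in DESeq2 passed that limit in either direction. In limma on log2(FPKM + 1) with a filter, an alternative chosen after seeing the data for these lists, 20 were called higher and 1 lower (PNPT1). Over all 14105 genes in that limma fit, 894 were called higher and 326 lower. Of the 18 called in edgeR, 10 were on the list of interferon-stimulated genes. Each gene was placed on a single list, so the 10 leave out any interferon-stimulated gene placed on another list.

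Among the 17 signalling partners tested, 1 (5.88%) was called higher in edgeR, near the 5.69% of all genes tested. By adjusted p alone 3 (17.6%) were higher and 2 (11.8%) lower, against 18.5% and 20.0% of all genes. With library totals 2 were called higher, where 1164 of 14854 genes were. In limma on log2(FPKM + 1) with a filter 3 were, IRF7, TANK and TRADD, where 894 of 14105 genes were. IRF7, the factor that amplifies interferon transcription, had 31 and 40 fragments with vehicle and 87 and 84 with gemcitabine, a log2 fold change of 1.38. AZI2, an adaptor that binds TBK1, was at -0.067. The other genes past adjusted p alone, named after their values were seen, were TANK (0.48) and IRF3 (0.28), higher, and TBKBP1 (-0.49) and TRAF3 (-0.44), lower. The median of the list was -0.067, and 0.043 with library totals.

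Of the 22 other nucleic acid sensors tested, 4 (18.2%) were called higher and 0 lower in edgeR, against 5.69% and 4.43% of all genes tested. By adjusted p alone 6 (27.3%) were higher and 11 (50.0%) lower, against 18.5% and 20.0%. OASL, which binds RIG-I, had 12 and 15 fragments with vehicle and 82 and 74 with gemcitabine, a log2 fold change of 2.63. OAS1, which makes the activator of RNase L, had 2, 3, 14 and 9 in the same order (2.26). IFIT1, which binds RNA lacking a mature cap, had 45, 54, 210 and 178 (2.08), and OAS3 stood at 0.60. OAS1 was read by few fragments in every library. Of the 11 lower by adjusted p, those of largest change were DHX9 (-0.55), UNC93B1 (-0.53), DHX36 (-0.50) and MRE11 (-0.46). These were named after their values were seen, and each was short of the fold limit. The list median was -0.21, or -0.095 with library totals. Under that scaling 8 were lower by adjusted p, where 6051 of 14854 genes passed in either direction and the median of all genes was 0.12.

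Of the 13 nucleases and brakes on self nucleic acid that were tested, 0 were called in either direction in edgeR and DESeq2. Over all genes tested edgeR called 5.69% higher and 4.43% lower. In limma on log2(FPKM + 1) with a filter, SKIC2 was called higher and PNPT1 lower (log2 values of 0.61 and -0.67, named after their values were seen). That fit called 894 of 14105 genes higher and 326 lower. In edgeR by adjusted p alone 3 (23.1%) were higher and 2 (15.4%) lower, against 18.5% and 20.0% of all genes tested. At an unadjusted p under 0.05, 6 were higher and 2 lower in edgeR, where 7014 of 14854 genes passed in either direction. BANF1, which restrains cGAS on nuclear DNA, was at -0.033, and RNASEH2A, the catalytic subunit that removes ribonucleotides from DNA, at 0.15. The list median was 0.081.

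Of the 21 ubiquitin and feedback regulators tested, 3 (14.3%) were called higher and 0 lower in edgeR, against 5.69% and 4.43% of all genes tested. By adjusted p alone 4 (19.0%) were higher and 4 (19.0%) lower, near the 18.5% and 20.0% of all genes. TNFAIP3, the deubiquitinase A20 that restrains inflammatory signalling, had 248 and 275 fragments with vehicle and 549 and 574 with gemcitabine, a log2 fold change of 1.22. The deubiquitinase CYLD (0.79) and the ubiquitin ligase TRIM21 (0.63) were the others. The list median was 0.017.

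Interferon genes themselves were near absent. Of 21 in the table, 17, IFNB1, IFNL1, IFNL2 and IFNL3 among them, had 0 fragments in all 4 libraries, and 1 could be tested. That gene, IFNE, an epithelial type I interferon, had 24, 27, 24 and 12 fragments (log2 fold change -0.39, edgeR adjusted p = 0.459). The others with any fragment had at most 3 in a library. At this depth a 0 allows up to 0.190 to 0.227 CPM, and 48 h was the only time sampled.

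Of the 19 interferon-stimulated genes tested, 10 (52.6%) were called higher and 0 lower in edgeR, and 12 (63.2%) were higher by adjusted p alone, against 5.69%, 4.43% and 18.5% of all genes tested. The median log2 fold change was 0.93, against 0.0068 over all genes tested. IFIT2 had 18 and 21 fragments with vehicle and 124 and 88 with gemcitabine (log2 fold change 2.55), and IFIT3 had 39, 28, 162 and 141 (2.28). IFI27 (1.84) and IFI44 (1.49) followed. Not all members of the list moved, and MX1, named after its values were seen, had 25, 27, 18 and 25 fragments. The list was written with earlier results of these data known.

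Of the 4 necroptosis partners of ZBP1 that were tested, 0 were called in edgeR and DESeq2. Over all genes tested edgeR called 5.69% higher and 4.43% lower. By adjusted p alone 1 (25.0%) was higher, RIPK1 (log2 fold change 0.35, named after its values were seen), against 18.5% of all genes. RIPK1 alone of the 4 also had an unadjusted p under 0.05, a limit that 7014 of 14854 genes passed in edgeR. CASP8 was at 0.031 and CASP6 at -0.079. The list median was -0.024, and 0.086 with library totals.

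**Figure D4:**
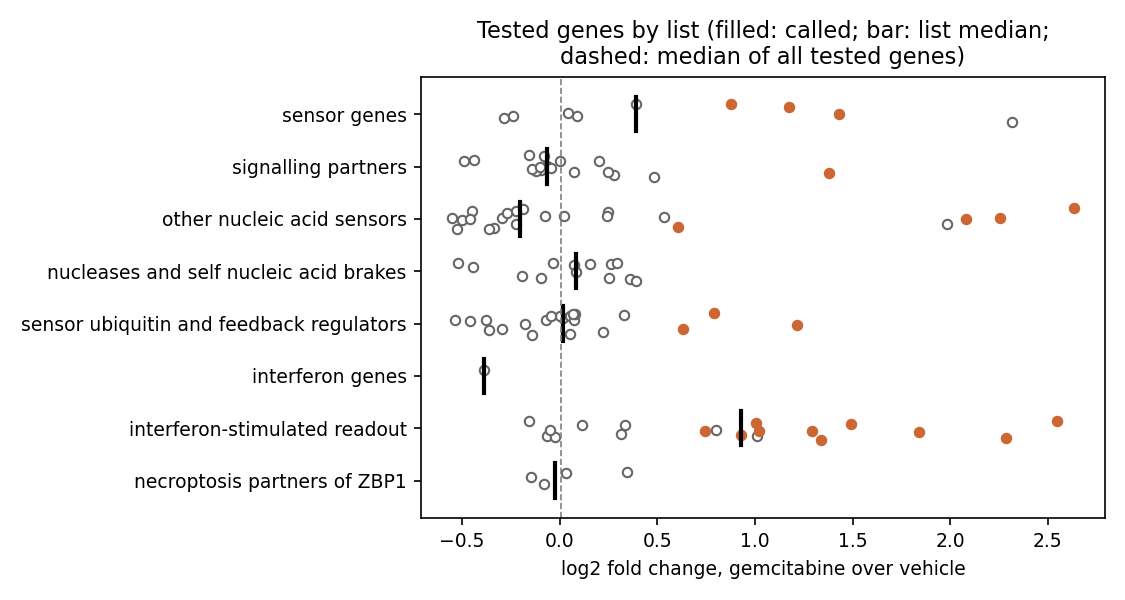
Log2 fold change of each tested gene, gemcitabine over vehicle, by list. Each point is 1 gene, filled where called, the black bar is the list median and the dashed line the median of all genes tested (0.0068). The interferon-stimulated list has its median at 0.93 and 10 filled points, while the other partner lists have medians between -0.39 and 0.081.

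Blood cell markers were checked because immune cells express several of these sensors. Of 10 markers, 8 had 5 fragments or fewer in every library and PTPRC had 4, 2, 9 and 5. CD68, which is not limited to blood cells, was called higher with 133 and 154 fragments against 238 and 269. The summed FPKM of the list was 11.0 to 11.1 with vehicle and 20.9 to 25.0 with gemcitabine, nearly all of it CD68. The other 9 markers summed to 0.233 and 0.322 FPKM with vehicle and to 0.692 and 0.457 with gemcitabine. In a bulk sample, a change in the cells present and a change in RNA per cell cannot be told apart, and the part of these markers in the results was not tested.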

How the data were processed

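RNA-seq was done on PANC1 cells (2 vehicle and 2 gemcitabine libraries) and DNaseI-seq on 1 library of each. The authors aligned reads to hg19 with TopHat2 2.0.8 and quantified protein-coding genes with Cuffdiff 2.0.2. The deposited table gives estimated counts of fragments, which are not normalized, and FPKM. Of the estimated counts 86.8% are whole, and 275 genes are marked as failed in a library and were kept. Another 2 value columns were not used. The deposited DNaseI peak lists give a MACS score for each peak, called by the authors per condition at a p-value limit of 1e-05. Which strand the counting used is not given in the sources used here.

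Estimated counts were rounded and tested with edgeR 4.0.16 (R 4.3.3) after TMM scaling, on the genes that had 10 or more fragments in all 4 libraries together, with Benjamini-Hochberg adjustment over all of them. Cuffdiff was not run. The alternatives were DESeq2 1.42.0, other scalings and filters, limma 3.58.1 on log2(FPKM + 1) and log2(FPKM + 0.1), other call criteria, and each library left out in turn. The edgeR test was tested on simulated data for this comparison: of 200 changed genes among 14709, it recovered 94%, and 5.53% of its calls were false. In the deposited data 5725 of 14854 genes had an edgeR adjusted p under 0.05. How far the 94% and 5.53% hold for the calls reported here was not tested. The 3-fragment limit on a count of 0 and the interval of the DHX58 ratio of summed fragments cover counting error only. The 95% intervals of the fold changes come from the edgeR fit, which also takes in the spread between replicates. The replicates of a condition differed by more than sampling noise, the chi-square per gene averaging 2.21 between the vehicle and 5.40 between the gemcitabine libraries.

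The members and all lists were chosen with earlier results of these data known. All 10 members are named, and of each partner list the called genes, at most the 4 of largest change, with the most abundant genes added where fewer than 2 were called. IKBKE, IKBKG and CCL5 are not analysed here. Starts were taken from GENCODE v44 carried to hg19.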

Additional observations from a re-analysis of the deposited data

How the results depend on the processing

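No paired analysis was possible because the table numbers its libraries by an index that matches no replicate label. RIGI, STING1 and TLR3 were called higher in each leave-one-out fit, so the count stayed at 3, with log2 fold changes of 1.36 to 1.51, 1.17 to 1.19 and 0.79 to 0.99. With limma on log2(FPKM + 1) without a filter, 0 members were called (adjusted p = 0.0644 for RIGI and STING1), where 0 genes were called in all, 5 members and 4689 genes had an unadjusted p under 0.05, and edgeR called 3 members. Adjusted p alone gave 1 member lower, and 29 partner genes higher and 19 lower in place of 18 and 0. Among alternatives chosen for the partner genes after seeing the data, limma on log2(FPKM + 1) with a filter called 20 higher and 1 lower, and the leave-one-out fits called 15 to 18 higher and 0 to 2 lower, the 2 (SLC19A1 and DHX36) being without gemcitabine replicate 2. TBK1 turned to 0.12 in both limma fits on log2(FPKM + 1) and to 0.13 on log2(FPKM + 0.1). TREX1, near 0, ranged from -0.028 (without gemcitabine replicate 1) to 0.11 in the leave-one-out fits. Library totals moved the median of all genes to 0.12, and the genes called from 845 higher and 658 lower to 1164 and 417. With peaks of score 100 or more, 0 members had a vehicle peak near a start and 1, STING1, a gemcitabine peak. Over all 19619 genes, 1471 had such a vehicle peak and 1806 such a gemcitabine peak. The cause of these differences was not tested. DHX58 was not tested under edgeR's own filter, and DESeq2 gave it no adjusted p. The 95% interval of IFIH1, at 102 to 131 fragments a library, spanned 1.04-fold to 1.66-fold.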
